A study of Mus musculus with 18 samples.

Results

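Translation initiation factors are the proteins that load a ribosome onto an mRNA and find its start codon, and their transcripts are described here in maturing mouse oocytes with and without Lsm14b. The members are the protein coding genes of the annotation (GENCODE vM21, GRCm38, which is mm10) whose symbol starts with Eif and a number between 1 and 6. Of 54 such symbols, 6 were left out: the eIF2 kinases Eif2ak1 to Eif2ak4, the 4E-transporter gene Eif4enif1 and the oocyte cap-binding paralog Eif4e1b. The other 48 were all present among the 27874 genes of the expression table. The rule uses symbols and no measured value. Of the 48, 45 were tested, because 3 or more of the 18 libraries held them at 1 FPKM or above, as was the case for 10320 genes in all. FPKM is a level per kilobase of exon and scaled to the reads of its library, so it is a relative level and says nothing of the amount of RNA per oocyte. The 3 members that missed this filter were Eif5a2, Eif4ebp1 and Eif4ebp3.

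Each of the 18 libraries came from 15 oocytes. KO oocytes, from Lsm14b-/- mice, and WT oocytes, from wild-type mice, were taken at the germinal vesicle stage (GV, before meiosis resumes), in metaphase of the first division (MI), and 14 h after the ovulatory hormone hCG. There are 3 replicates for each of the 6 groups. The labels call the last time MII in both genotypes; it is called MII time for KO here, since the labels do not say which KO oocytes were in metaphase II. They give no strain, age or mouse of origin, so the p-values measure only the spread between these samples, which may be technical. The Lsm14b protein binds RNA and belongs to a family found in cytoplasmic mRNA granules.

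Initiation runs through a fixed series of steps. eIF2 brings the initiator tRNA with GTP, and eIF2B recharges eIF2 with GTP after each round. eIF1, eIF1A and eIF3 hold the small ribosomal subunit open for scanning, and eIF4E, eIF4G and eIF4A, aided by eIF4B and eIF4H, bind the cap and unwind the leader. eIF5 and eIF5B complete start codon selection and joining of the large subunit, which eIF6 otherwise keeps apart. Fully grown oocytes are transcriptionally silent, so what is translated during maturation is set on mRNAs that are already stored.

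The size of the smallest FPKM step implied a depth of 14227584 to 17183607 reads per library. This is an estimate from annotated exon lengths: in KO GV replicate 1 it was 15124246, while the reads recovered over genes summed to 15506859. Between 7352 and 9795 genes per library reached 1 FPKM. Lsm14b (chr2:180024987-180035465) stood at 0 to 0.234 FPKM in KO libraries, against 2.04 to 11.2 FPKM in WT libraries. All 15 oocyte markers were found, and their summed level was 29229 to 33656 FPKM in KO GV, 25087 to 36064 in WT GV, 11758 to 15679 in KO at MII time and 7636 to 7812 in WT MII libraries. The 15 markers of cumulus and granulosa cells summed to 5.50 to 12.8 FPKM in any library, with Amh at 0 in 15 and Foxl2 at 0 in 17 of the 18. Other markers of this list were found in all 18, among them Cyp19a1 at 1.89 to 6.09 FPKM, Nr5a2 at 0.845 to 4.80 and Kitl at 0.606 to 3.51. Markers of theca, stroma and endothelium, 8 of 10 found, summed to 2.28 to 6.79 FPKM, with the endothelial marker Pecam1 at 1.77 to 6.11. Blood markers summed to 0.507 to 7.27 FPKM, except for 30.1 FPKM in 1 WT MI library, of which Lyz2 made 27.5. KO GV replicates 2 and 3 stood apart: deviations from the group mean had an SD of 0.522 and 0.476 over all genes, against 0.185 to 0.327 in the other 16 libraries. The calls at GV that follow, and the calls in KO changes that start at GV, were also read without each of them. In these bulk libraries, fewer oocytes with a transcript and less RNA per oocyte cannot be told apart.

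Initiation factor transcripts spanned more than 3 orders of magnitude in the same oocytes. Eif1b, a close relative of the start codon selection factor gene Eif1, had the highest mean over all libraries, 425.9 FPKM. Eif2b1 followed with 170.5 FPKM, and Eif2s2, Eif5a, Eif4e, Eif5, Eif1ax and Eif4a1 with 76.3 to 89.4 FPKM. At the low end the translational repressor genes Eif4ebp1 and Eif4ebp3 had means of 0.303 and 0.00987 FPKM, and Eif4ebp3 was listed at 0 in 17 of 18 libraries. Eif4ebp2 averaged 0.874 FPKM, so the 3 4E-BP genes together reached 1.12 FPKM in KO GV and 0.887 in WT GV oocytes. Eif5a2, the paralog of Eif5a, averaged 0.140 FPKM. The summed level of the 48 members was 2118 ± 205 FPKM in KO and 1936 ± 67.6 in WT at GV, 1812 ± 137 and 1902 ± 170 at MI, and 1536 ± 188 and 1430 ± 14.99 at the last time (SD, n = 3 each). The KO and WT ranges of this sum overlapped at GV, MI and the last time.

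**Figure D1:**
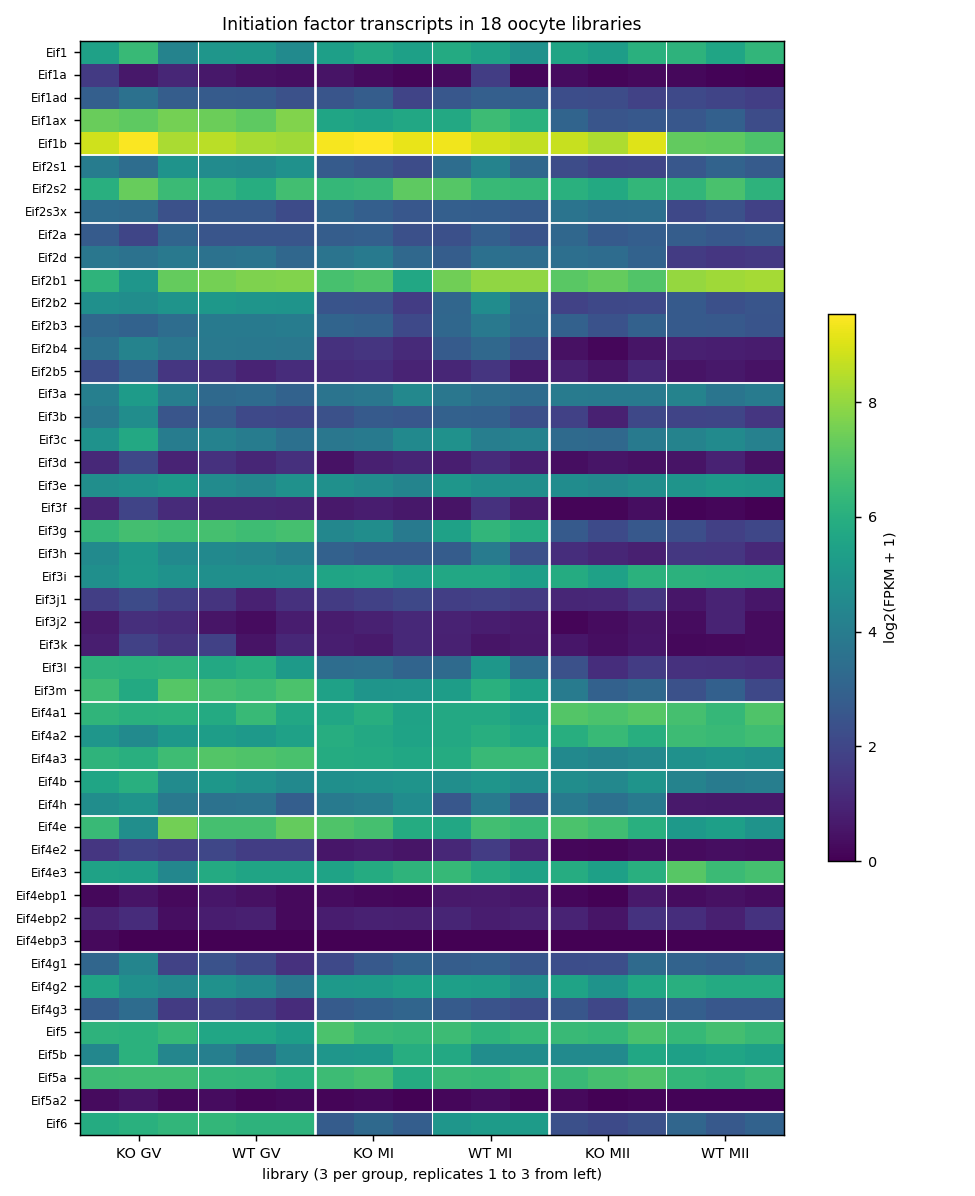
Level of each of the 48 members (rows, grouped by role) in each of the 18 libraries (columns, KO left of WT at each stage), as log2(FPKM + 1). Eif1b is the brightest row, and Eif4ebp1, Eif4ebp3 and Eif5a2 are among the darkest. Eif1ax, Eif3g, Eif3l, Eif3m and Eif6 darken from left to right in both genotypes.

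The change in normal maturation was measured first, in WT oocytes. In all comparisons log2(FPKM + 1) was fitted with limma over all genes tested, and p-values were adjusted by Benjamini-Hochberg, with a call at an adjusted p under 0.05. This scale understates the change of low genes. From GV to MII, 33 of 45 members (73.3%) changed, 22 lower and 11 higher; of all genes tested 57.7% were called, 28.8% lower and 28.9% higher. The members' share of falls was thus 48.9%, and the median log2 change of the 45 was -0.52, with 0.09 for the genes tested as a whole. From GV to MI, 6 fell and 2 rose, 17.8% of the members against 4.82% of all genes (2.06% lower, 2.75% higher). With median-of-ratios scaling, 12 fell and 0 rose from GV to MI, so the split at that step moves with the scaling. Over all genes 697 fell and 152 rose with that scaling, beside 213 and 284 without it. The counts from GV to MI also rest on few libraries. Without WT MI replicate 1, 0 members passed either way, and over all genes 1 rose and 39 fell. Without any 1 WT GV replicate, 0 members rose and 1 or 2 fell. Over all genes, 44, 23 and 36 rose and 61, 91 and 90 fell without WT GV replicates 1, 2 and 3. Without KO GV replicate 2 or 3, which share in the estimate of spread, 11 members fell. Over all genes, 411 or 366 then fell and 1025 or 1072 rose. The rises from GV to MII numbered 7 without WT GV replicate 3 or WT MII replicate 1 or 3. Over all genes 2322, 2217 and 2486 rose in these fits, beside 2982 with all libraries.

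In KO oocytes the change over the same times again ran mostly downward. From GV to MI, 11 of 45 members fell and 1 rose, 26.7% against 13.0% of all genes (10.4% lower, 2.53% higher). From GV to MII time, 21 fell and 3 rose, 53.3% against 37.2% (25.4% lower, 11.9% higher). The median log2 change of the members was -0.71 in KO over the full course, against -0.07 for all genes. Scaling moved the upward share: at MII time 6 rose and 18 fell with quantile normalization, and at MI 3 rose with 13 or 12 falls under median-of-ratios or quantile scaling. The background moved as well. With quantile normalization, 3064 of 10320 genes rose and 2188 fell to MII time, beside 1224 and 2618 without added scaling. To MI, 547 genes rose and 1121 fell with median-of-ratios scaling, and 836 and 1044 with quantile scaling, beside 261 and 1076. Without KO GV replicate 2 the counts to MII time were 18 lower and 3 higher, and without replicate 3 they were 24 and 4; the falls from GV to MI were 11 and 18 without those libraries.

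KO and WT oocytes were then compared at each stage. At GV 7 of 45 members were higher and 3 lower in KO, 22.2% against 20.8% of all genes (13.3% higher, 7.49% lower), which is close to the background. At MI 1 was higher and 7 lower, 17.8% against 17.3% (3.63% higher, 13.7% lower). At MII time 6 were higher and 2 lower, 17.8% against 28.6% (14.9% higher, 13.8% lower). A share near or under the background is no result about the set, so what follows is about single genes. The median log2 change of the members was 0.32 at GV, -0.08 at MI and -0.12 at MII time, against 0.17, -0.13 and 0.01 for all genes. Median-of-ratios scaling shifted the median of all genes to -0.04 at GV and 0.02 at MI, and the members' median to 0.07 and 0.10. The split at GV was then 5 higher and 4 lower, and at MII time quantile normalization gave 5 higher and 4 lower. Over all genes these splits were 1086 and 1442 at GV, and 1801 and 1838 at MII time.

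The calls at GV were the least firm. Without KO GV replicate 2, only 2 members were higher and 0 lower at GV, and without replicate 3, 14 were higher and 5 lower. The counts over all genes moved as well: 467 were higher and 564 lower without replicate 2, and 3050 and 1080 without replicate 3, beside 1373 and 773 with all libraries. Of the 10 members called at GV, Eif3a and Eif5 were still called without replicate 2, and all 10 without replicate 3. Without KO GV replicate 1 the counts were 3 and 1, and without WT GV replicate 2 or 3 they were 2 and 1 or 2 and 0. Over all genes they were 650 and 588, 690 and 570, and 430 and 470, in the same order. At MI, 4 were lower without KO MI replicate 3 or WT MI replicate 2. Over all genes, 881 and 773 were lower at MI without these libraries, beside 1411 with all libraries. At MII time 5 members were lower without KO GV replicate 2 or 3, and 0 without KO MII replicate 2 or WT MII replicate 1. Over all genes, 1698, 1649, 983 and 1041 were lower at MII time without these libraries, beside 1419 with all libraries. When the 6 GV libraries alone were fitted with limma, 0 members passed, with 11 at an unadjusted p under 0.05. Of the 10320 genes tested, 92 were higher and 210 lower in that fit.

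**Figure D2:**
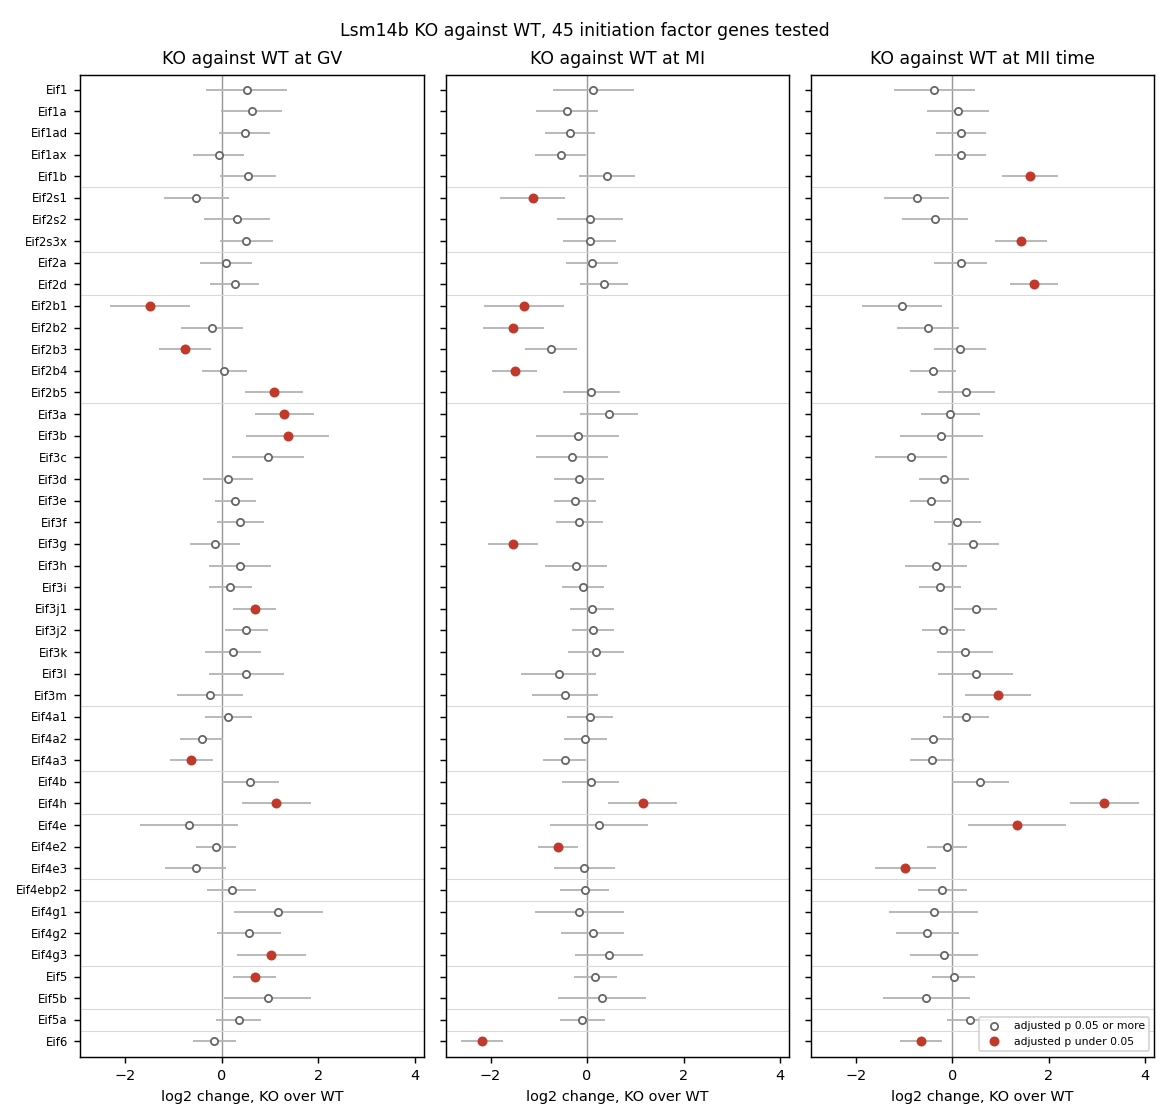
Log2 change, KO over WT, with its 95% interval for the 45 members tested at GV, MI and MII time, ordered by role; filled points have an adjusted p under 0.05. Eif6 is the farthest left at MI (-2.17) and Eif4h the farthest right at MII time (3.15).

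Start codon selection. eIF1 and eIF1A sit on the small subunit during scanning. Eif1ax, the X-linked eIF1A gene (chrX:159372178-159389928), showed the largest fall of all members in WT. It stood at 4.94, 6.52 and 3.69 FPKM in WT MII oocytes, against 169, 142 and 209 FPKM in WT GV oocytes. The log2 change was -4.86 (SE 0.25, adjusted p = 4.56e-11). In KO the log2 change to MII time was -4.62, and no difference between KO and WT at GV, MI or MII time passed the test. At MI the KO libraries, at 47.5, 43.2 and 51.8 FPKM, lay below the WT libraries at 53.6, 92.7 and 67.7 FPKM (log2 change -0.55, adjusted p = 0.147).

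Eif1b (chr9:120492232-120495330) took another course. At MII time it stood at 419, 325 and 535 FPKM in KO oocytes, against 151, 142 and 117 FPKM in WT oocytes, with no overlap. KO was higher by a log2 change of 1.61 (SE 0.28, adjusted p = 0.000281). In WT it fell from GV to MII by 1.24 on the log2 scale, while the KO change was -0.17 (adjusted p = 0.671). The difference between the 2 changes, 1.07, missed the threshold (95% interval 0.24 to 1.89, adjusted p = 0.0997). An antisense gene covers 12.7% of its exons. Eif1 rose in WT to 65.0 ± 15.2 FPKM at MII, against 28.6 ± 5.36 at GV (log2 change 1.15, adjusted p = 0.0199); the call was lost without WT GV replicate 3 or WT MII replicates 1 or 3 (adjusted p 0.0626 to 0.0767).

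The ternary complex. eIF2 has 3 subunits, of which alpha (Eif2s1) is the one that stress kinases phosphorylate and gamma (Eif2s3x) binds GTP and the tRNA. The 3 transcripts did not move together. Eif2s1 (chr12:78861819-78887010) stood at 5.61, 4.74 and 3.67 FPKM in KO MI oocytes, against 9.54, 18.4 and 8.03 FPKM in WT MI oocytes. All KO libraries lay below all WT libraries, and the log2 change was -1.13 (SE 0.32, adjusted p = 0.0212). The call was lost without KO MI replicate 2 or 3 or WT MI replicate 2 (adjusted p 0.0515 to 0.138) and with either scaling (0.0591 and 0.0869).

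Eif2s3x (chrX:94188707-94212862) differed in the other direction and at the other end of maturation. It stood at 11.7, 9.94 and 10.0 FPKM in KO at MII time, against 3.19, 4.18 and 2.63 FPKM in WT MII oocytes. The log2 change was 1.43 (SE 0.26, adjusted p = 0.000445), and the call held in all 25 other fits. Its processed pseudogene Gm2223 was also higher, at 2.29 ± 0.779 FPKM in KO and 0.941 ± 0.176 in WT, and reads of the pair may have been split between them. Eif2s2, the beta subunit gene, had the highest level of the 3 and passed no test between KO and WT; its pseudogene Gm9892 took 44.8% of their summed FPKM.

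eIF2D, encoded by Eif2d (chr1:131153181-131187658), can bring tRNA to the ribosome without eIF2 and acts in ribosome recycling. At MII time Eif2d stood at 10.1, 9.34 and 6.92 FPKM in KO oocytes, against 2.15, 1.84 and 2.03 FPKM in WT oocytes. The groups lay far apart, with a log2 change of 1.69 (SE 0.24, adjusted p = 3.76e-05). In WT it fell from GV to MII (log2 change -1.90), and in KO the change was -0.47. The 2 changes differed by 1.43 (95% interval 0.72 to 2.13, adjusted p = 0.0205). It missed the threshold when WT GV replicate 1 or 2, KO MII replicate 1 or WT MII replicate 2 or 3 was left out (adjusted p 0.0511 to 0.0666). Eif2a stood at 4.73 to 6.59 FPKM in the 6 group means and passed no test.

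The exchange factor. eIF2B has 5 subunits, of which epsilon (Eif2b5) is catalytic and alpha, beta and delta (Eif2b1, Eif2b2 and Eif2b4) form the regulatory part that senses phosphorylated eIF2. The transcript of the alpha subunit was far above the rest: in WT GV oocytes Eif2b1 stood at 200.7 FPKM and Eif2b5 at 1.25 FPKM. In KO GV oocytes the same 2 genes stood at 86.5 and 4.16 FPKM. The ratio of Eif2b1 to Eif2b5 was 19.2, 4.59 and 84.6 in the 3 KO GV libraries, against 123.3, 227.6 and 157.0 in the WT GV libraries. KO GV replicate 2 was the lowest and replicate 3 the highest of the KO libraries, and the groups did not overlap.

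Eif2b1 (chr5:124570213-124579131) was the member with the lowest KO level relative to WT at GV. It stood at 73.1, 31.4 and 155 FPKM in KO GV oocytes, against 185, 208 and 210 FPKM in WT GV oocytes. At MI the values were 107, 120 and 52.2 FPKM in KO, against 175, 244 and 246 FPKM in WT. At MII time they were 136, 153 and 122 FPKM in KO, against 261, 291 and 300 FPKM in WT. All 9 KO libraries lay below all 9 WT libraries.

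The log2 changes of Eif2b1 were -1.48 at GV, -1.31 at MI and -1.05 at MII time (SE 0.40 each; adjusted p = 0.0159, 0.0287 and 0.0558). The calls rest on few libraries. Without KO GV replicate 2 the GV change was -0.90 (adjusted p = 0.0839), and it was -1.45 (0.0555) without WT GV replicate 3; without KO GV replicate 3 it was -2.04 (0.000336). The GV call was also lost with no filter (0.0574). At MI the call was lost without KO MI replicate 3 or WT MI replicate 2 or 3 (adjusted p 0.0741 to 0.16), with no filter (0.0938) and with median-of-ratios scaling (-1.11, adjusted p = 0.132).

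The other regulatory subunits differed at MI. Eif2b2 (chr12:85219481-85226628) stood at 4.61, 4.41 and 2.25 FPKM in KO MI oocytes, against 7.83, 24.2 and 9.60 FPKM in WT MI oocytes. Eif2b4 (chr5:31187558-31193430) stood at 1.59, 1.79 and 1.19 FPKM in KO MI, against 5.59, 8.27 and 4.85 FPKM in WT MI. Neither pair of groups overlapped, although WT MI replicate 2 was well above the other WT libraries for Eif2b2. That library was also the highest in WT MI for Eif2b4, Eif2s1, Eif3g and Eif4e2, though not for Eif6 or Eif2b1.

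The log2 changes at MI were -1.53 for Eif2b2 (SE 0.31, adjusted p = 0.00213) and -1.50 for Eif2b4 (SE 0.22, adjusted p = 0.000172). Both calls held without any 1 library and under all 7 other settings, with log2 changes of -1.07 to -1.82 and -1.31 to -2.004. At GV the KO and WT means were close, 26.9 and 31.2 FPKM for Eif2b2 and 13.9 and 13.1 FPKM for Eif2b4. Both transcripts fell in WT from GV to MII, with log2 changes of -2.49 and -3.03. The differences between KO and WT in the change from GV to MI were -1.32 and -1.55 and missed the threshold (adjusted p = 0.254 and 0.0837).

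Eif2b3, the gamma subunit gene, stood at 8.08, 6.998 and 9.52 FPKM in KO GV oocytes, against 14.4, 14.4 and 14.95 FPKM in WT GV oocytes. The groups did not overlap (log2 change -0.77, SE 0.26, adjusted p = 0.0418). The call was lost in 9 of the 18 fits that left out 1 library, among them KO GV replicates 1 and 2 and each WT GV replicate, with adjusted p up to 0.137. Eif2b5 was higher in KO at GV, at 4.16 ± 2.52 FPKM against 1.25 ± 0.302 (SD, n = 3 each, log2 change 1.09, adjusted p = 0.0141). It was 0.73 without KO GV replicate 2 (adjusted p = 0.0794) and 1.46 without replicate 3 (0.000437). Of the 5 subunits, 2 were lower and 1 higher at GV, where 7.49% of all genes were lower and 13.3% higher, and 3 were lower at MI, where 13.7% of all genes were. At MII time 0 of the 5 passed by limma's adjusted p, against 28.6% of all genes; of the 45 members 13 had an unadjusted p under 0.05 at that time.

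The scaffold. eIF3 is the largest factor, and its subunits bind the ribosome, the mRNA and the other factors. Its 14 genes did not keep 1 ratio to each other. In WT GV oocytes they ran between 0.451 FPKM for Eif3j2 and 102.3 for Eif3m, and in WT MII oocytes between 0.0697 FPKM for Eif3f and 65.8 for Eif3i. From GV to MII time in KO, 11 of 14 fell and 1 rose, where 25.4% of all genes fell and 11.9% rose. From GV to MII in WT, 8 fell and 2 rose, where 28.8% of all genes fell and 28.9% rose.

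Eif3m, Eif3g and Eif3l, all among the higher eIF3 transcripts at GV, dropped the most. Eif3g, which carries an RNA recognition motif (chr9:20894349-20898623), stood at 3.95, 2.51 and 3.13 FPKM in WT MII oocytes, against 105, 94.1 and 104 FPKM in WT GV oocytes. Eif3l stood at 1.57, 1.48 and 1.33 FPKM in WT MII, against 52.6, 61.5 and 35.5 FPKM in WT GV. Eif3m stood at 4.12, 6.62 and 3.23 FPKM in WT MII, against 102, 90.8 and 114 FPKM in WT GV. No MII library came near a GV library. The log2 changes were -4.62, -4.34 and -4.23 (adjusted p = 6.94e-11, 2.29e-08 and 6.24e-09), and Eif3h followed with -2.95. In KO the log2 changes of Eif3g, Eif3l, Eif3m and Eif3h to MII time were -4.04, -4.37, -3.06 and -3.67, and each was called without KO GV replicate 2 and without replicate 3.

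Eif3i, which encodes a beta-propeller subunit, ran the other way and became the highest eIF3 transcript. It stood at 69.2, 65.0 and 63.2 FPKM in WT MII oocytes, against 25.7, 25.6 and 26.4 FPKM in WT GV oocytes (log2 change 1.31, SE 0.21, adjusted p = 4.68e-05). In KO it rose too, to 55.8 ± 12.5 FPKM at MII time, against 29.6 ± 4.34 at GV (log2 change 0.88, adjusted p = 0.00292). Eif3e stood at 23.0 to 32.3 FPKM in the 6 group means and passed no test of these.

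**Figure D3:**
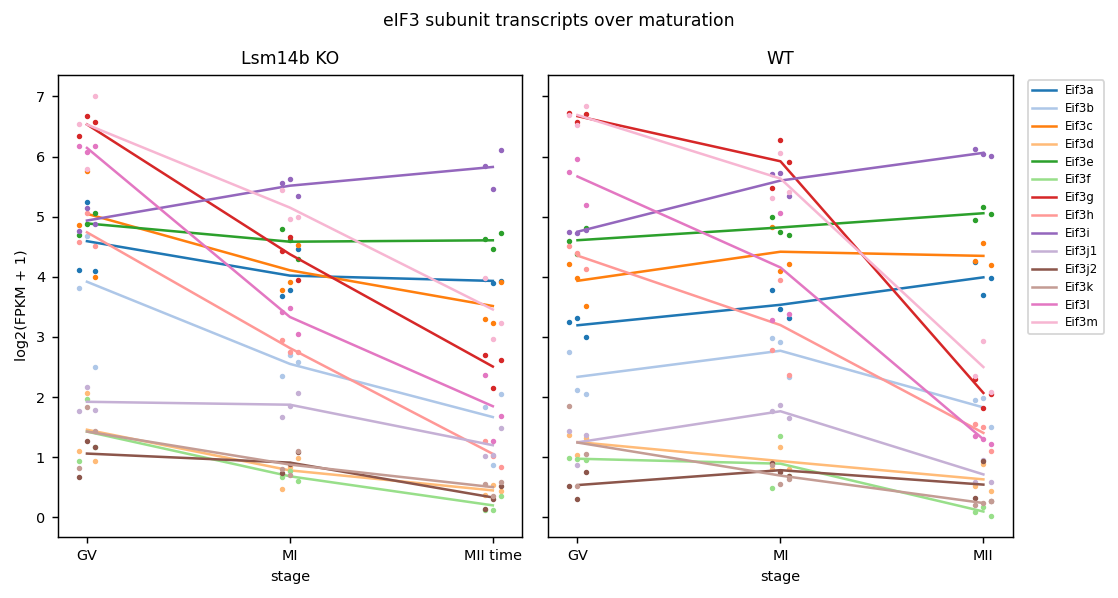
Levels of the 14 eIF3 subunit genes at GV, MI and the last time in KO (left) and WT (right), as log2(FPKM + 1); lines join group means and points are the 3 libraries. In WT, Eif3g, Eif3l and Eif3m end near the bottom and Eif3i ends on top, at a mean of 65.8 FPKM; in KO, Eif3g lies lower at MI (19.8 FPKM in KO against 59.6 in WT).

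Eif3g was lower in KO at MI, between these end points. It stood at 20.5, 24.5 and 14.4 FPKM in KO MI oocytes, against 43.4, 76.5 and 59.0 FPKM in WT MI oocytes. The groups did not overlap, and the log2 change was -1.54 (SE 0.25, adjusted p = 0.000378), with -1.34 to -1.75 over all 25 other fits. At GV KO and WT overlapped (log2 change -0.14), and at MII time they overlapped again (0.43). The difference in the change from GV to MI was -1.40 (adjusted p = 0.142). The other 13 subunits did not pass at MI, where 17.3% of all genes did.

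Eif3m at MII time stood at 14.7, 6.85 and 8.36 FPKM in KO, against 4.12, 6.62 and 3.23 FPKM in WT (log2 change 0.94, adjusted p = 0.0377). The lowest KO library lay just above the highest WT library, and the call was lost without KO MII replicate 1 or 3 or WT MII replicate 1 or 3 (adjusted p 0.0562 to 0.203). Its processed pseudogene Gm7658 stood at 1.47 ± 0.987 FPKM in KO and 0.486 ± 0.198 in WT at that time.

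At GV, 3 of the 14 eIF3 transcripts were higher in KO, where 13.3% of all genes were. Eif3a, the largest scaffold subunit gene (chr19:60761117-60790658), stood at 16.3, 37.0 and 16.1 FPKM in KO GV oocytes, against 8.53, 8.98 and 6.95 FPKM in WT GV oocytes. KO GV replicate 2 was the highest, and the groups did not overlap without it either. The log2 change was 1.30 (SE 0.29, adjusted p = 0.00543), 0.92 without KO GV replicate 2 (adjusted p = 0.0265) and 1.49 without replicate 3 (0.00128). This call held without any 1 library and was lost only when the GV libraries were fitted alone (adjusted p = 0.0854). Eif3b (log2 change 1.37) and Eif3j1 (0.68) were also called, Eif3b with overlapping groups. With KO GV replicate 2 left out neither passed (adjusted p = 0.15 for Eif3b and 0.132 for Eif3j1). Eif3j1 shares sequence with Eif3j2, so reads of the pair are uncertain.

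Eif3c, another core subunit gene, was called in its course and not in KO against WT at any stage. It stood at 8.87, 8.35 and 14.1 FPKM in KO at MII time, against 28.0, 53.4 and 14.9 FPKM in KO at GV. In WT it stood at 18.2, 22.5 and 17.4 FPKM at MII, against 17.5, 14.9 and 10.5 FPKM at GV. All KO libraries at MII time thus lay below all WT MII libraries (log2 change -0.86, not called). The KO change was -1.39 and the WT change 0.43, which differed by -1.82 (95% interval -2.88 to -0.77, adjusted p = 0.0417). The call rests on few libraries: it was lost in 12 of the 18 fits that left out 1, and without KO GV replicate 2 the difference was -1.38 (adjusted p = 0.0736). Without KO GV replicate 3 it was -2.27 (0.00288).

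The cap complex. eIF4E binds the cap, and 4E-BPs keep it from eIF4G. The cap-binding genes changed places during WT maturation. Eif4e (chr3:138526179-138559696) stood at 35.0, 40.3 and 28.6 FPKM in WT MII oocytes, against 103, 106 and 156 FPKM in WT GV oocytes, and fell (log2 change -1.77, SE 0.49, adjusted p = 0.00482). Eif4e3, a paralog that binds the cap in another way (chr6:99625135-99666771), stood at 131, 89.5 and 104 FPKM in WT MII, against 56.0, 45.9 and 46.8 FPKM in WT GV. It rose by a log2 change of 1.10 (SE 0.30, adjusted p = 0.00459). Eif4e was thus above Eif4e3 in each WT GV library and below it in each WT MII library.

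In KO at MII time this order was not seen in the group means. Eif4e stood at 114, 95.8 and 63.3 FPKM in KO, and Eif4e3 at 58.1, 42.0 and 63.8 FPKM. Against WT, Eif4e was higher (log2 change 1.34, SE 0.49, adjusted p = 0.045) and Eif4e3 lower (-0.98, SE 0.30, adjusted p = 0.0198), with no overlap for either gene. The KO change of Eif4e from GV to MII time was 0.26, and it differed from the WT change by 2.02 (95% interval 0.58 to 3.46, adjusted p = 0.0797).

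The Eif4e call at MII time was weak: it was lost in 12 of the 18 fits that left out 1 library, with adjusted p up to 0.149, and with median-of-ratios (0.0801) or quantile scaling (0.0601). In KO GV oocytes Eif4e varied widely, at 87.3, 25.0 and 183 FPKM. The Eif4e3 call was lost without KO MII replicate 2 or WT MII replicate 1 (adjusted p = 0.0911 and 0.0878). Gm7327, a processed pseudogene of Eif4e, stood at 14.2 ± 4.63 FPKM in KO and 6.01 ± 0.940 in WT at this time, and Gm20696 covers 14.8% of the Eif4e3 exons. Eif4e2, a cap-binding gene tied to repression, stood at 0.107 to 3.09 FPKM over the 18 libraries and fell in both genotypes.

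eIF4G is the bridge between the cap, eIF4A and eIF3. All 3 eIF4G genes rose in WT from GV to MII, where 28.9% of all genes rose. Eif4g2, which encodes an eIF4G relative that lacks the eIF4E site, stood at 63.4, 55.1 and 56.0 FPKM in WT MII, against 27.2, 21.9 and 12.9 FPKM in WT GV (log2 change 1.51, SE 0.31, adjusted p = 0.000565). Eif4g1 rose by 1.07 (adjusted p = 0.0454) and Eif4g3 by 1.10 (0.0103) on the log2 scale. In KO the 3 changes were -0.49, 0.42 and -0.10 for Eif4g1, Eif4g2 and Eif4g3, and none passed by limma's test; 27 of the 45 members had an unadjusted p under 0.05 in that comparison. For Eif4g1 the 2 genotypes differed by -1.56 in this change (95% interval -2.87 to -0.25, adjusted p = 0.117). In KO GV oocytes Eif4g1 ran at 7.85, 19.1 and 2.67 FPKM, so its starting level was uneven. Eif4g3 was called higher in KO at GV (log2 change 1.03, adjusted p = 0.0397) with overlapping groups, and was not called with KO GV replicate 2 left out (0.64, adjusted p = 0.215).

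The eIF4A helicases split in WT. Eif4a2 (chr16:23107444-23114136) stood at 92.6, 88.2 and 95.6 FPKM in WT MII, against 38.4, 33.6 and 42.8 FPKM in WT GV, and rose (log2 change 1.25, SE 0.21, adjusted p = 8.79e-05). Exons of other genes, among them Rfc4 on the other strand, cover 13.3% of the Eif4a2 exons. Eif4a1 rose by 0.67 (adjusted p = 0.0187), although its pseudogene Eif4a-ps4 holds 34.9% of their summed FPKM. Eif4a3, which acts in the exon junction complex rather than in scanning, fell by 2.03 on the log2 scale. In KO the 3 genes changed in the same directions, by 1.26, 0.82 and -1.82. At GV Eif4a3 stood at 72.3, 63.9 and 94.5 FPKM in KO, against 127, 118 and 111 FPKM in WT, a log2 change of -0.63 with no overlap (adjusted p = 0.0436); the call was lost in 12 of the 18 fits that left out 1 library.

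Eif4h (chr5:134619721-134639490), whose product stimulates eIF4A, was the only member called in the same direction at all 3 stages. At GV it stood at 24.6, 29.3 and 13.6 FPKM in KO, against 11.0, 11.7 and 6.12 FPKM in WT. At MI the values were 13.9, 15.9 and 23.7 FPKM in KO, against 5.05, 13.8 and 5.32 FPKM in WT. At MII time they were 13.9, 10.4 and 14.3 FPKM in KO, against 0.577, 0.548 and 0.521 FPKM in WT. KO was above WT without overlap at each stage, narrowly so at GV and MI.

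The log2 changes of Eif4h were 1.13 at GV (SE 0.34, adjusted p = 0.028), 1.16 at MI (adjusted p = 0.025) and 3.15 at MII time (adjusted p = 2.51e-06). The last held in all 25 other fits, with 3.07 to 4.52. At GV it missed the threshold with KO GV replicate 1 or 2 or WT GV replicate 3 left out (adjusted p 0.0875 to 0.136), and the MI call without KO MI replicate 3 or WT MI replicate 1 or 3 (0.0913 to 0.119). In WT Eif4h fell by 2.73 on the log2 scale from GV to MII, and in KO the change was -0.71 (adjusted p = 0.111). These changes differed by 2.02 (95% interval 1.01 to 3.03, adjusted p = 0.0216); the call was lost without WT GV replicate 1 or 2, KO MII replicate 1 or WT MII replicate 3 (adjusted p 0.0537 to 0.0619). Eif4b, the related cofactor gene, stood at 25.0 ± 4.33 FPKM in KO and 16.3 ± 1.88 in WT at MII time and was not called (adjusted p = 0.136).

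**Figure D4:**
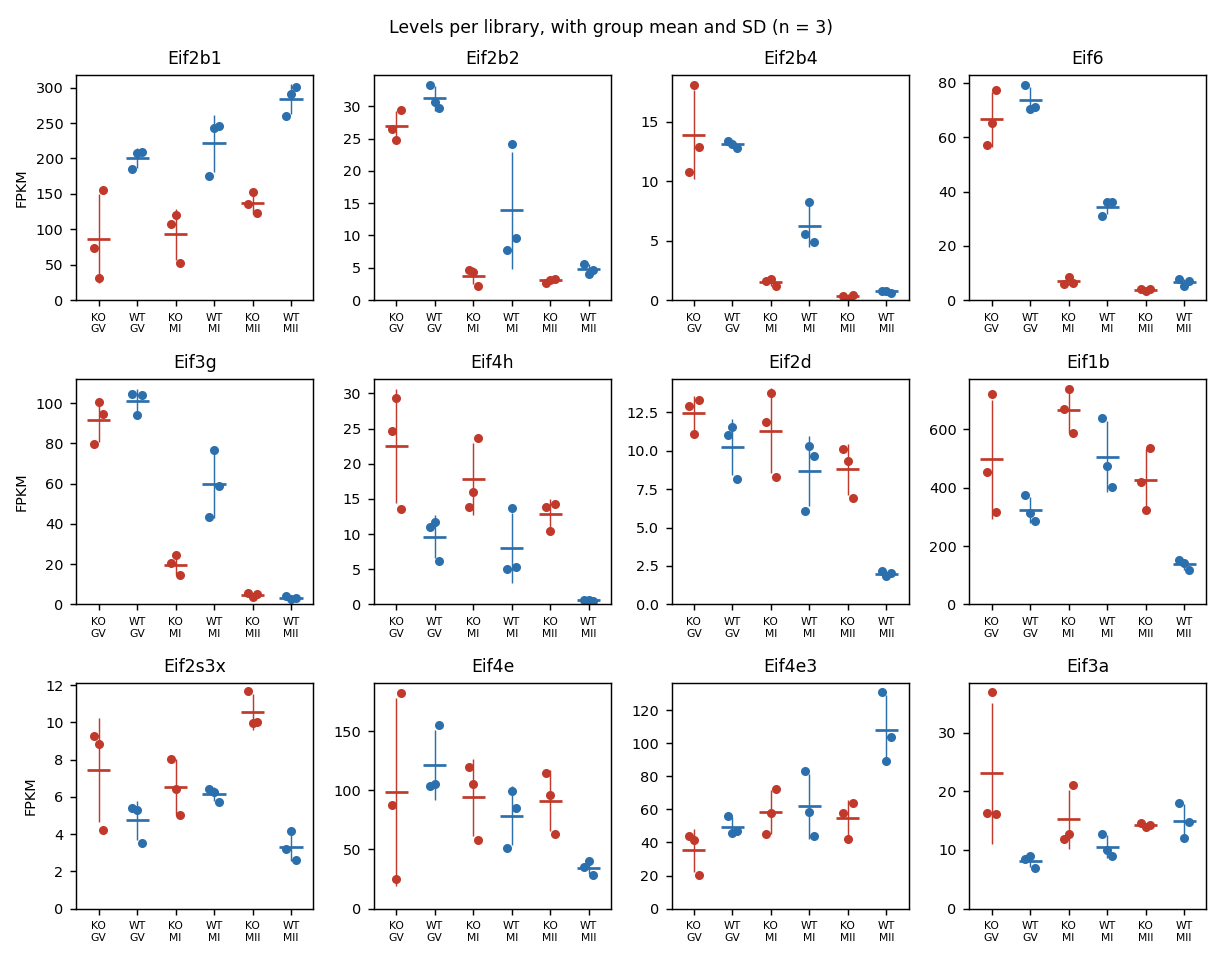
FPKM of 12 members in each library (points), with the group mean (bar) and SD (vertical line, n = 3), KO in red left of WT in blue at each stage. Eif2b1 is lower in KO at each stage, Eif6, Eif3g, Eif2b2 and Eif2b4 separate at MI, and Eif4h, Eif2d, Eif1b and Eif2s3x separate at the last time.

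Subunit joining. eIF5 triggers GTP hydrolysis by eIF2, and eIF5B joins the subunits. Eif5 stood at 71.3, 67.8 and 83.5 FPKM in KO GV oocytes, against 49.1, 49.0 and 39.8 FPKM in WT GV oocytes. The groups did not overlap (log2 change 0.68, SE 0.21, adjusted p = 0.0306). With median-of-ratios scaling the change was 0.39 (adjusted p = 0.311), and leaving out KO GV replicate 1 or any 1 WT GV replicate also ended the call (0.0572 to 0.119). At MI and MII time KO and WT overlapped. In WT, Eif5 and Eif5b both rose from GV to MII, with log2 changes of 0.97 and 1.45 (adjusted p = 0.000807 and 0.00845), while the KO changes were 0.31 and -0.04. Exons of Rev1 on the other strand cover 16.8% of those of Eif5b. Eif5a, best known for its role in elongation, stood at 73.2 to 102.6 FPKM in the 6 group means and passed no test.

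eIF6 binds the large subunit and keeps it from joining the small one. Eif6 (chr2:155819832-155826925) showed the largest difference between KO and WT of any member at MI. It stood at 5.89, 8.68 and 6.27 FPKM in KO MI oocytes, against 31.1, 36.1 and 36.2 FPKM in WT MI oocytes. The KO values were close to those of WT at MII, 7.79, 5.33 and 6.90 FPKM. The log2 change at MI was -2.17 (SE 0.21, adjusted p = 1.55e-06), and it was -1.98 to -2.32 over all 25 other fits.

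At GV the 2 genotypes overlapped, with 57.3, 65.3 and 77.3 FPKM in KO and 79.3, 70.5 and 71.3 FPKM in WT. From GV to MI, Eif6 fell by 3.09 on the log2 scale in KO and by 1.08 in WT. The difference was -2.02 (95% interval -2.64 to -1.40, adjusted p = 0.00561), the only member called in a comparison where 0.0775% of all genes were (0.0678% lower, 0.00969% higher). With median-of-ratios scaling it was -1.53 (adjusted p = 0.116), and it missed the threshold when only these groups were fitted (0.0639); it held without any 1 library. In this comparison 7 members were called lower without KO GV replicate 3, when 6.41% of all genes were. Without WT MI replicate 3, 2 members were, when 42 of 10320 genes were. At MII time Eif6 stood at 3.86 ± 0.411 FPKM in KO and 6.67 ± 1.25 in WT (log2 change -0.65, adjusted p = 0.025), a call lost without KO MII replicate 1 or 2 or WT MII replicate 1 or 3 (0.0522 to 0.108). Eif6 lies on the same chromosome as Lsm14b, as do Eif2s2, Eif3j1 and Eif3m, and a link to this position was not tested.

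From GV to the last time, 2 members changed more upward in KO than in WT and 1 more downward, 6.67% against 5.61% of all genes (3.88% higher, 1.73% lower), which is close to the background. These were Eif4h, Eif2d and Eif3c, described above. With median-of-ratios scaling the counts were 5 and 1, beside 827 and 335 over all genes. Without KO GV replicate 3 they were 4 and 9, with 7.7% of all genes higher and 19.7% lower, and without replicate 2 they were 3 and 0, with 4.11% and 0.814%. Without WT GV replicate 1 or 2, KO MII replicate 1 or WT MII replicate 3 they were 0 and 0. Over all genes, 207 and 59, 259 and 49, 182 and 33, and 188 and 43 then passed, in that order.

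**Figure D5:**
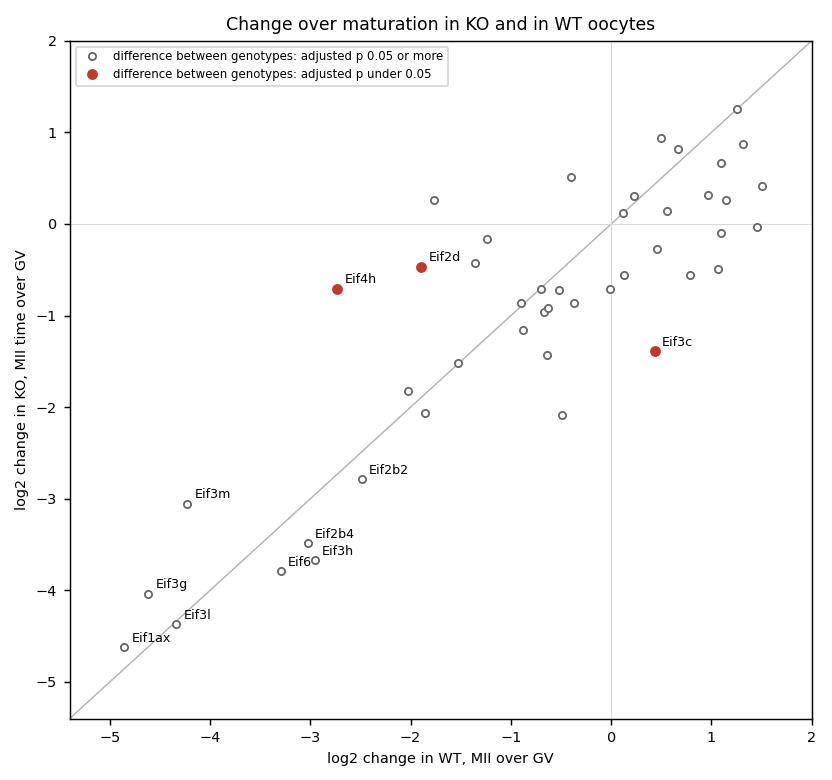
Log2 change to the last time over GV in KO (vertical axis) against WT (horizontal axis) for the 45 members tested; the line marks equal change, and filled points passed the test of the difference. Eif1ax, Eif3g, Eif3l, Eif3m and Eif6 lie at the lower left, below -3 in both genotypes, and Eif4h, Eif2d and Eif3c off the line.

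The members called lower in KO at MI can be set beside the WT course, which uses other WT libraries. Of the 7 (Eif6, Eif3g, Eif2b2, Eif2b4, Eif2b1, Eif2s1 and Eif4e2), all but Eif2b1 fell in WT from GV to MII, with log2 changes of -1.53 to -4.62; over that step 48.9% of the members and 28.8% of all genes fell. For Eif2b1 that change was 0.50 (adjusted p = 0.291). Of the 6 members higher in KO at MII time, 5 fell in WT from GV to MII (Eif4h, Eif2d, Eif1b, Eif4e and Eif3m), and Eif2s3x had a log2 change of -0.40 (adjusted p = 0.189). The WT MII libraries enter both of these last comparisons, so the values are given side by side only.

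Members whose level moved most alike were found by the Pearson correlation of log2(FPKM + 1) over the 6 group means, given with no p because stage sets much of it. Eif6 was most like Eif2b4 (r = 0.993), Eif4e2 and Eif2b2 (0.989 each). Eif1ax was most like Eif3m (0.988) and Eif3g (0.986). Eif4h was most like Eif2d (0.972), and Eif4g2 most like Eif1 (0.992). Eif2b1 had no member above 0.757, which was Eif4e3.

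The ends of the transcripts were read for the signals that bear on tail length, from 1 annotated transcript per gene. Cytoplasmic polyadenylation needs the poly(A) signal AATAAA or ATTAAA and, for elongation in oocytes, often a cytoplasmic polyadenylation element (CPE), here the letters TTTTAT or TTTTAAT. Among 43 members with at least 100 bases of 3' UTR, 4 (9.30%) held CPE letters on the sense strand in the last 100 bases, against 18.6% of 16137 protein coding genes. A poly(A) signal in the last 50 bases was found in 34 (79.1%), against 77.6%. Both are counts of letters in a window, with no test. Median 3' UTR length was 339 bases for the 22 members that fell in WT from GV to MII, 925 bases for the 11 that rose and 805 bases for the 12 others. In KO to MII time it was 468 bases for the 21 that fell, 537 bases for the 3 that rose and 977 bases for the 21 others. For all 48 it was 685.5 bases, and for protein coding genes tested 933 bases.

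Windows of 30 bases are shown for some of the members called in WT from GV to MII or in KO against WT. They run 5' to 3' on the transcript strand, with the signal in capitals. Other called members with a signal, among them Eif1b, Eif2b2, Eif2s3x and Eif5b, are not shown. Coordinates are mm10, from GENCODE vM21.
Eif1ax CPE, chrX:159389887-159389916 (+): attcagtggatgTTTTATgctgcacaaata
Eif4e3 CPE, chr6:99625205-99625234 (-): aaTTTTATttttgaactttatttaaagcat
Eif6 poly(A) signal, chr2:155819841-155819870 (-): gtgccccaccccATTAAAggactgcctccc
Eif2b1 poly(A) signal, chr5:124570215-124570244 (-): ctgagtgctgggATTAAAgatgtgtaccat
Eif4e poly(A) signal, chr3:138559664-138559693 (+): cagaggattggaATTAAAtgcgttcactac
Eif2b4 poly(A) signal, chr5:31187569-31187598 (-): ggaacaagggtcAATAAAaagcttactccc
Eif4h poly(A) signal, chr5:134619882-134619911 (-): aatgatcttttaAATAAAagagaaccttac
Eif3i poly(A) signal, chr4:129591979-129592008 (-): tttagactgagaAATAAAttagtttgttaa
Eif4a2 poly(A) signal, chr16:23113913-23113942 (+): gtttgaatgttaAATAAAattgtatattca
Eif1ax, the member with the largest fall in WT, and Eif4e3, which rose, both held CPE letters, 30 and 98 bases before the annotated end. Eif4e3 also held a poly(A) signal in the last 50 bases, and Eif1ax held none there. Eif3l held neither signal in its window. The annotated 3' UTRs of Eif3g and Eif3m, of 78 and 65 bases, are shorter than the window and are not among the 43; they held neither signal.

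Genes around the initiation factors were read from a list of 42 symbols. Of the 17 regulators of initiation tested, 2 were higher and 2 lower in KO at GV, 0 and 3 at MI, and 2 and 5 at MII time. These and the counts for related genes below stand beside 20.8%, 17.3% and 28.6% of all genes called at GV, MI and MII time. Paip2, which encodes an inhibitor of poly(A)-binding protein, stood at 335.1 ± 24.8 FPKM in KO and 29.8 ± 1.77 in WT at MII time (log2 change 3.45, adjusted p = 2.26e-07). Its counterpart Paip1, an activator that binds eIF4A, stood at 213.2 ± 21.5 FPKM in KO and 572.5 ± 269 in WT (-1.32, adjusted p = 0.00772).

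The kinase genes Mknk1, which acts on eIF4E, and Rps6kb1, the S6 kinase, were lower in KO at all 3 stages. Mknk1 stood at 7.67 ± 0.501 FPKM in KO and 19.7 ± 2.94 in WT at GV, at 10.0 ± 2.10 and 18.3 ± 2.13 at MI, and at 14.5 ± 1.22 and 30.3 ± 8.43 at the last time. The log2 changes were -1.24, -0.82 and -0.97 for Mknk1 (adjusted p = 0.00157, 0.0198 and 0.00376) and -0.63, -0.76 and -1.06 for Rps6kb1. The GV call of Rps6kb1 was lost with KO GV replicate 2 left out (-0.58, adjusted p = 0.0952). At MII time Ppp1r15a, a regulatory subunit of an eIF2 alpha phosphatase, stood at 7.14 ± 0.499 FPKM in KO and 23.9 ± 2.65 in WT (-1.61, adjusted p = 0.000139). Eif2ak1, an eIF2 kinase gene, was lower in KO at MI (-0.78) and MII time (-0.83).

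Of 7 genes that act beside initiation, 3 were higher and 0 lower at GV, 1 and 0 at MI, and 2 and 2 at MII time. Pabpc1 was among the higher ones each time, at 5.22 ± 4.01 FPKM in KO and 0.168 ± 0.0527 in WT at GV, 7.38 ± 0.714 and 0.827 ± 0.595 at MI, and 4.65 ± 2.67 and 0.372 ± 0.129 at the last time. Pabpc1l, the oocyte poly(A)-binding protein gene, stood at 50.3 ± 9.73 FPKM in KO and 11.6 ± 5.23 in WT at MII time (log2 change 2.08, adjusted p = 0.000369). Of 12 elongation and termination genes, 4 were higher and 1 lower at GV, 0 and 3 at MI, and 0 and 1 at MII time. The lower one at GV was Eef1e1, at 1.85 ± 0.724 FPKM in KO and 14.2 ± 3.10 in WT (-2.42, adjusted p = 5.35e-05). Of the 12 genes of these lists called at GV, Abce1, Eef1e1, Eef1g, Mknk1 and Pabpc1 were still called with KO GV replicate 2 left out, and all 12 with replicate 3 left out. All means here are with SD, n = 3 each.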

How the data were processed

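Each library was made by Smart-seq2 with an oligo(dT) primer and sheared cDNA, per the labels' protocols. Tail length may therefore weigh on a level. The authors deposited FPKM values for 27874 genes. Per the submitters' processing notes mm10 is the build listed, and DESeq2 1.38.3 is named, its use unstated. For the aligner, annotation and library strand, the sources used here are silent. Gene identifiers were matched to GENCODE vM21 (27829 found, 45 not). Depth was read from the smallest FPKM step: multiplied by exon length, 93.9% to 94.7% of low nonzero values were whole reads (tolerance 0.05 read).

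The 10320 genes that reached 1 FPKM in 3 or more libraries were tested with limma 3.58.1 in R 4.3.3 on log2(FPKM + 1), with a variance trend, fitting all 6 groups together (12 residual degrees of freedom). P-values are two-sided and adjusted by Benjamini-Hochberg within each comparison over all genes tested. No scaling was added. The fit was tested on simulated data. Alternatives were a pseudocount of 0.1, no filter, median-of-ratios and quantile scaling, only the groups compared, the replicate number as a block, voom on the recovered reads, and leaving out each library.

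Members given in full had an adjusted p under 0.05 between KO and WT at a stage, a mean of at least 5 FPKM in 1 group and no overlap, or were called in a difference between genotypes, or were among the 6 largest changes each way in WT from GV to MII; the other members named had the highest level of their role group or fill it out. The members and gene lists were chosen with earlier results of these data known. Near-identical copies were searched with BLAST 2.17.0 (95% identity over 200 bases). Python 3.11.15 with pandas 2.3.3 and numpy 2.4.6 made the tables, and matplotlib 3.10.9 the figures.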

Additional observations from a re-analysis of the deposited data

Results flagged for a closer look

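The difference between KO and WT in a change over maturation passed the test, with Benjamini-Hochberg adjustment over all genes in limma, for 4 member results. For Eif6 the change from GV to MI differed by -2.02 on the log2 scale (adjusted p = 0.00561). From GV to MII time the change differed by 1.43 for Eif2d (adjusted p = 0.0205), by 2.02 for Eif4h (adjusted p = 0.0216) and by -1.82 for Eif3c (adjusted p = 0.0417). The Eif3c value moved between -1.38 without KO GV replicate 2 and -2.27 without KO GV replicate 3, the libraries that stood apart at GV.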

How the results depend on the processing

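No member called in a comparison changed sign there under any alternative run. Among members not called, up to 11 of 45 had the other sign with median-of-ratios scaling, up to 5 with quantile scaling and up to 8 with 1 library left out. Whether a call held without any 1 library and under the 7 other settings was read for some calls only. These were members given in full between KO and WT, differences between genotypes and the 12 largest changes in WT from GV to MII. Of these, Eif6, Eif3g, Eif2b2 and Eif2b4 were kept at MI, and Eif4h, Eif2d, Eif1b and Eif2s3x at MII time. In WT, 11 of the 12 were kept (all but Eif1). The counts that follow are members called higher and lower, each with the same count over all genes tested in brackets. With no filter, 48 members and 27874 genes entered the fit. In KO against WT the counts were 3 and 0 at GV (844 and 621), 0 and 4 at MI (265 and 1284) and 4 and 1 at MII time (1270 and 1430). In WT from GV to MI 3 were lower (107), and 1 and 0 passed in the difference between genotypes to MII time (197 and 71). With median-of-ratios scaling 3 members were higher in KO from GV to MI (547) and 5 to MII time (2245). In WT from GV to MI, 0 were higher and 12 lower (152 and 697). In the differences, 0 were lower to MI (4) and 5 higher to MII time (827). With quantile scaling 3 and 6 were higher in KO from GV to MI and to MII time (836 and 3064). In KO against WT 4 were lower at MII time (1838), and 2 were lower in the difference to MII time (425). With only the groups compared, 0 and 0 passed at GV (92 and 210) and 6 were lower at MII time (1812). In KO from GV to MI 0 were higher (34), and 0 were lower in the differences to MI (1) and to MII time (108). Voom on recovered reads gave 4 lower at MII time (1462) and 2 lower in the difference to MII time (203). The cause was not tested.

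The counts over all genes also moved with the library left out, at GV from 430 to 3050 higher and from 470 to 1080 lower in KO. Leaving out 1 library at a time, KO against WT gave 2 to 14 members higher and 0 to 5 lower at GV, 0 to 1 and 4 to 8 at MI, and 4 to 7 and 0 to 5 at MII time. It gave 0 to 2 and 10 to 18 in KO from GV to MI, 3 to 4 and 18 to 24 to MII time, 0 to 3 and 0 to 11 in WT to MI, and 7 to 12 and 17 to 23 to MII. In the differences between genotypes it gave 0 to 0 and 1 to 7 to MI, and 0 to 4 and 0 to 9 to MII time.

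Libraries with the same replicate number did not deviate together in the comparisons made: 15 of 45 pairs had a correlation over 0.1 (-0.522 to 0.42), and 5 of 18 libraries were closest to one of their own number. KO MI and KO MII libraries, which no comparison sets against each other, were the only 1 of 15 group pairs with all 3 correlations over 0.1 (0.237 to 0.42). With the replicate block, 7 members were higher and 1 lower at GV, 2 and 0 in the difference to MII time, and 4 higher at MII time. Over all genes these counts were 1303 and 737, 331 and 112, and 1517. The member counts of the other comparisons stayed within 1.5 times. Between KO and WT, the calls lost under the block were Eif2b3 (adjusted p = 0.0535) and Eif4a3 (0.0569) at GV, Eif4e (0.0639) and Eif3m (0.0515) at MII time, and Eif3c (0.0605) in the difference to MII time. Levels under about 1 FPKM rest on few reads, and a share of FPKM says nothing of absolute RNA.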
